A study of Homo sapiens with 6 samples.

Results

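Long intergenic noncoding RNAs whose symbol is LINC followed by digits were examined in RNA-seq gene counts of H1299 cells, a human cell line long established from a non-small cell lung carcinoma. Members were the entries with such a symbol and a mean of 30 or more raw counts over the 6 libraries. The count table held 19201 entries, of which 321 carried a LINC symbol, and 214 of these met the mean and were members. The other 107 fell below it. They were thus selected on the raw counts averaged over all libraries, and the levels given here are descriptions. The difference between the groups was not used to choose them.

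The groups were 3 libraries of H1299 cells overexpressing the long noncoding RNA lncBCAS1-4_1 and 3 libraries of wild-type H1299 cells. The labels name no vector or clone for either group. An effect of making the overexpressing cells and an effect of the RNA itself therefore cannot be told apart. The comparison asks how the transcriptome differs with the overexpression. Nothing in the labels ties the replicates to separate cultures, so each p-value reflects the variation among these libraries alone, and that variation may be technical. No entry of the table carries the name of the overexpressed RNA, and its level was not analysed here.

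Long intergenic noncoding RNAs are transcribed by RNA polymerase II from their own promoters between protein-coding genes, and most are spliced and polyadenylated like mRNAs but code for no known protein. A LINC symbol with a number is a placeholder given by the gene nomenclature committee to such a gene before a function is known. Some act in the nucleus on neighbouring genes or chromatin, some act in the cytoplasm, and for most no role is established. As a class they are less abundant and more restricted to particular tissues than mRNAs, and several are studied in lung cancer for their effects on growth.

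Total counts ran between 84531039 and 92780032 per library. The epithelial keratins KRT18 and KRT8 averaged 1301 and 446 CPM in the overexpressing cells, against 956 and 368 CPM in the wild-type cells (CPM is counts per 1e6 counts of the TMM-scaled library). The lung lineage factor NKX2-1 was at 0.431 CPM in overexpressing and 0.674 CPM in wild-type cells, and the endothelial markers PECAM1 and VWF were below 0.55 CPM in every library. KRT18 and KRT8 were higher in the overexpressing cells (adjusted p of 0.00092 and 0.0046), and their part in the differences of the noncoding RNAs was not tested.

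Of the 214 members, 213 matched the GENCODE 44 annotation on GRCh38, where every one of them is classed as lncRNA. LINC02210 did not match and has no length or GC content here. The canonical transcripts had a median of 3 exons, and 27 members had a single exon. The exons of a member covered a median of 3441 bases, with extremes of 371 and 33198 bases, and the GC content of the canonical transcript had a median of 48.0% and ran between 32.4% and 70.8%. The members lay on 23 chromosomes, and those with the most members were chromosome 1 (28), chromosome 7 (16) and chromosome 2 (15).

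Most members were scarce. The mean raw count had a median of 166, 80 members lay between 30 and 100 counts, and 75 members were below 1 CPM. Only 29 members reached 10 CPM. The 3 members just inside the limit were LINC01285, LINC01537 and LINC02328, each at a mean of 30.2 counts. Just outside it were an entry of LINC02256 at 29.8 counts, LINC00842 at 29.2 counts and a second entry of LINC02256 at 29.0 counts. For 15 members only 1 of the groups averaged 30 counts: 6 members in the overexpressing and 9 in the wild-type cells. Of those 15, LINC01537 alone passed the test for a difference.

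Per kilobase of exon, the most abundant member was LINC02972 at chr12:8788253-8795789 (GRCh38, plus strand), with 35.1 ± 2.5 CPM per kb in overexpressing and 26.9 ± 1.3 CPM per kb in wild-type cells (SD, n = 3 each). It stood well above the next in order. LINC01896 had 15.2 ± 1.5 and 13.3 ± 0.40 CPM per kb in overexpressing and wild-type cells, and LINC00973 had 9.99 ± 0.50 and 13.4 ± 0.25 CPM per kb. LINC00665, LINC02916, LINC01842, LINC00857, LINC01419, LINC00963 and LINC00839 followed, with means over both groups between 9.75 and 5.67 CPM per kb. LINC00665 and LINC02916, neighbours in this order at 9.75 and 9.53 CPM per kb, differed by less than the SD of LINC02916 within either group. LINC00665, studied in lung and liver cancers, held the most reads of all members, with a mean of 10494 counts. The level of LINC00665 was 120.5, 122.2 and 110.9 CPM in the overexpressing libraries and 122.2, 117.2 and 118.5 CPM in the wild-type libraries. The groups overlapped, and the log2 fold change was -0.02 (SE 0.05, adjusted p = 0.81).

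Summed over the members, the groups had nearly equal levels. Their summed level was 1287 ± 6.3 CPM in overexpressing and 1282 ± 13.9 CPM in wild-type cells (SD, n = 3 each), a ratio of 1.00. Without LINC00665, the most abundant member, the ratio was 1.0055. Without LINC00963, the member with the largest rise in CPM, the sum was 1148 ± 5.9 CPM in overexpressing and 1205 ± 19.3 CPM in wild-type cells, a ratio of 0.952. LINC00963 was left out because it rose in these data, so this ratio had to fall. It shows no general fall of the other members. In bulk RNA, fewer cells that hold an RNA and less of it per cell cannot be told apart, and this applies to every level here. The 5 most abundant members held between 32.5% and 33.7% of the members' summed CPM in the overexpressing libraries and between 27.0% and 27.8% in the wild-type libraries. They include LINC00963, so this difference is in part its rise again.

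At an adjusted p under 0.05 by edgeR's quasi-likelihood test, with Benjamini-Hochberg adjustment over all 19101 entries tested, 10 members were higher in the overexpressing cells and 24 were lower. These 34 are 15.9% of the members, whereas 38.0% of all entries tested passed, 18.3% higher and 19.7% lower. The share called was thus below the background, and more so for rises (4.67% of members) than for falls (11.2%). The median log2 fold change was -0.04 over the members and -0.0041 over all entries. Of the 34, 15 were under 1.5-fold. Over 2-fold, 7 of the 214 members were called (3 higher and 4 lower), beside 403 of the 19101 entries tested (2.11%). Among the calls alone these are 7 of 34 members and 403 of 7250 entries, a larger share in the members. Level was not matched in this comparison. The 3 higher ones include LINC01537, which met the limit of 30 counts only through the overexpressing group. Of the 180 members that did not pass, 93 had a log2 fold change below 0. The count of higher members fell to 5 without overexpressing library 1 and to 6 without overexpressing library 2. With libraries scaled by total count alone, 6 were higher and 29 lower.

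**Figure D1:**
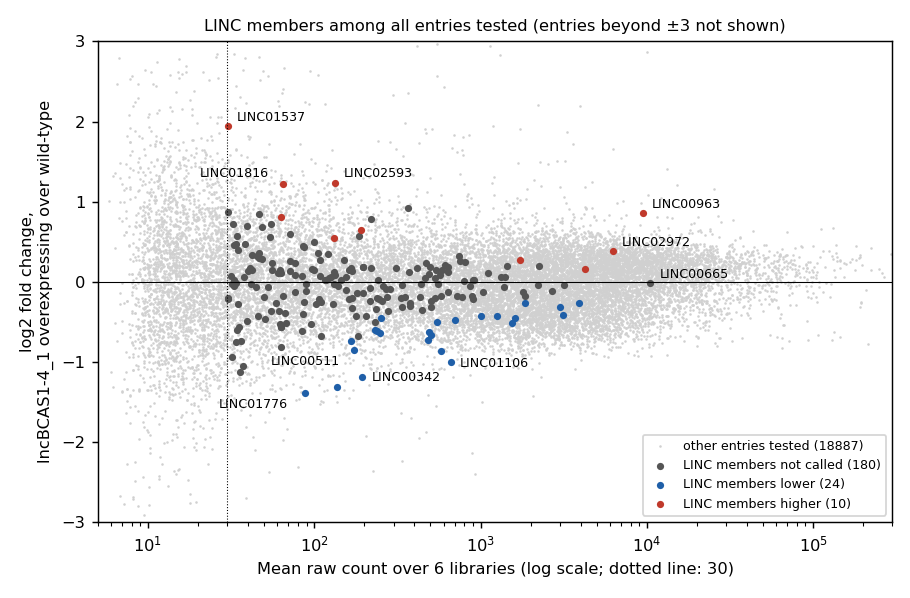
Log2 fold change (overexpressing over wild-type, linear axis) of each entry tested against its mean raw count (log axis). Grey points are other entries, dark points the 180 members not called, red points the 10 higher members and blue points the 24 lower members. LINC01537 lies highest at 1.94, close to the limit of 30 counts, and LINC00963 and LINC00665 lie close together in level with changes of 0.86 and -0.02.

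The level of an RNA sets how well a difference can be seen, so members were set beside other entries of like counts. Between 30 and 100 counts, 5.0% of 80 members and 8.47% of 2455 other entries were called. Between 100 and 300 counts the shares were 18.0% of 61 members, 8 of them lower, and 17.2% of 1836 entries, 8.66% lower. The share was smaller in members than in other entries in the upper bins. Between 300 and 1000 counts, 14.6% of 48 members were called, all 7 of them lower, against 32.1% of 2464 other entries (20.4% lower). From 1000 counts on, 48.0% of 25 members and 62.5% of 9308 other entries were called, with 16% of members and 30.7% of other entries higher, and 32% of members and 31.8% of other entries lower. The median SE of the log2 fold change was 0.136 for members and 0.137 for other entries between 300 and 1000 counts, and 0.077 for members and 0.065 for other entries from 1000 counts on. No test of these shares was made, and level differs within a bin.

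**Figure D2:**
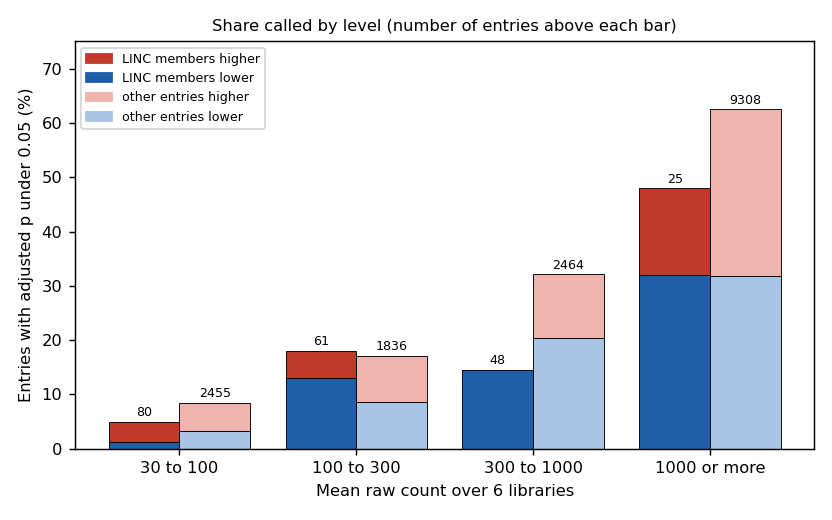
Share of entries with an adjusted p under 0.05 (percent) in 4 bins of mean raw count, for LINC members (left bar of each pair) and for the other entries tested (right bar). Red parts are higher and blue parts lower in overexpressing cells, and the numbers give the entries in each bar. Between 300 and 1000 counts the members' bar has no red part, 14.6% against 32.1%.

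Other noncoding classes named by symbol had shares called on either side of that of the members. Of 474 antisense entries (symbols ending in AS and a number) with the same minimum count, 21 were higher and 39 lower, 12.7% in all. Of 260 divergent entries (symbols ending in DT), 7 were higher and 13 lower, or 7.69%. MIR host genes gave 0 higher and 5 lower of 27, or 18.5%. The SNHG genes, hosts of small nucleolar RNAs and far more abundant with a median of 1091 counts, gave 8 higher and 2 lower of 24, or 41.7%. Of 14018 protein-coding entries, with a median of 2048 counts, 48.4% were called. The differences in share between these classes were not tested.

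LINC00963 had the clearest rise. It lies at chr9:129476946-129513687 on the plus strand of GRCh38, and was first described in prostate cancer. Its level was 139.5, 139.2 and 138.5 CPM in the overexpressing libraries, against 74.4, 72.9 and 83.0 CPM in the wild-type libraries. The overexpressing libraries lay close to each other and far above all wild-type libraries. The rise was 1.81-fold (log2 fold change 0.86, SE 0.05, adjusted p = 2.75e-05). It remained 0.65 after a correction for GC content and length (adjusted p = 3.51e-05). Of the 31-base stretches in its canonical transcript, 62.1% also occur in another gene, mostly in ENSG00000286078, which overlaps LINC00963 on the other strand. The counting is not stated to use strand, so reads of these genes cannot be told apart.

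The RefSeq start of LINC00963 lies 11714 bases inside the GENCODE gene, at the start of a shorter transcript. The window of 250 bases before and 50 bases after that start is shown because it holds an AP-1 element (chr9:129488410-129488709, plus strand, RefSeq on GRCh38.p14). The window reads, 5′ to 3′, with the element in capitals:
LINC00963: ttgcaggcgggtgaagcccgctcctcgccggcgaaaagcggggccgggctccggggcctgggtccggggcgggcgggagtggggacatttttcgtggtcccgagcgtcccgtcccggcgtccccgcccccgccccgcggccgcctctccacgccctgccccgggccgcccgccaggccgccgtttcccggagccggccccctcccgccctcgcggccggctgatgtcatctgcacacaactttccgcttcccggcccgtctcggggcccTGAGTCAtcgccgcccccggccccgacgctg
The AP-1 letters searched were TGANTCA on both strands. They occur in 7.71% of all 35116 RefSeq windows of this length and in 10.4% of the 164 windows that belong to 140 members.

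LINC01537 had the largest fitted fold change and is a scarce RNA, which met the limit of 30 counts only through the overexpressing group. A member near the limit that enters in this way has to differ, so its test is no support for a change among the members. Its counts were 40, 57 and 45 in the overexpressing libraries, against 13, 14 and 12 in the wild-type libraries. Every overexpressing library was above every wild-type library. The mean was 0.552 ± 0.114 CPM in overexpressing and 0.142 ± 0.0078 CPM in wild-type cells (SD, n = 3 each), 3.85-fold (log2 fold change 1.94, SE 0.40, adjusted p = 0.0045). The gene lies at chr11:72570660-72573229 on the plus strand, and its RNA has been reported in lung cancer to stabilise the mRNA of PDE2A, a cyclic nucleotide phosphodiesterase whose start lies 103931 bases away. PDE2A had 0.703 ± 0.310 CPM in overexpressing and 0.372 ± 0.249 CPM in wild-type cells, and its log2 difference of 0.91 was not past the threshold (SE 0.55, adjusted p = 0.23). The window at the start of LINC01537, shown with that of the growth-promoting LINC00511 for the members with the largest rise and a well-studied fall, has its first 50 transcribed bases in capitals (chr11:72570406-72570705, plus strand; chr17:72640423-72640722, minus strand; RefSeq on GRCh38.p14, 5′ to 3′):
LINC01537: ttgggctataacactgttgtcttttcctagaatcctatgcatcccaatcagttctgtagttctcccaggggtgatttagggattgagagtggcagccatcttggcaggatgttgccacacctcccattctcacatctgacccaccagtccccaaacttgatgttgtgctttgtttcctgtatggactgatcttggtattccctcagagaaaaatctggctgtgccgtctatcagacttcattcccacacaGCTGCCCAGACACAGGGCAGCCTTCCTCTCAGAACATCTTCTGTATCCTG
LINC00511: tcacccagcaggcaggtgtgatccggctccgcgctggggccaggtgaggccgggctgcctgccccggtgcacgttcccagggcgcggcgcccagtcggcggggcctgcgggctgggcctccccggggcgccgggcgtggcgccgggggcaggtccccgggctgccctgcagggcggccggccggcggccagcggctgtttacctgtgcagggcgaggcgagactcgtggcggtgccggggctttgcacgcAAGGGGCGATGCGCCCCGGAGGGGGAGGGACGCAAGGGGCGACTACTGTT
The LINC01537 window was 48.7% GC and the LINC00511 window 78.0% GC, and neither held any of the motifs searched.

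The other large rises were also in scarce RNAs. LINC01816 had 101, 76 and 89 counts in overexpressing libraries and 35, 35 and 51 counts in wild-type libraries, and rose 2.33-fold (log2 fold change 1.22, SE 0.28, adjusted p = 0.008). LINC02593 had 149, 229 and 174 counts in overexpressing libraries and 53, 72 and 124 counts in wild-type libraries, 2.35-fold (log2 fold change 1.23, SE 0.32, adjusted p = 0.015). Wild-type library 3 of LINC02593 lay nearest to the overexpressing ones. Its call was lost with the correction (0.90, adjusted p = 0.061), and without overexpressing library 2 (1.02, adjusted p = 0.058) or wild-type library 2 (1.12, adjusted p = 0.056). LINC02438 rose 1.75-fold, LINC02709 1.57-fold and LINC02976 1.46-fold, with adjusted p between 0.026 and 0.048. With the correction LINC02709 (0.49, adjusted p = 0.11) and LINC02438 (0.82, adjusted p = 0.068) did not pass. LINC02438 and LINC02976 did not pass under DESeq2 (adjusted p = 0.076 and 0.075) or limma-voom (adjusted p = 0.063 and 0.062). LINC02709 had 243, 172 and 267 raw counts in overexpressing libraries and 153, 175 and 132 in wild-type libraries, which overlap, while the scaled levels did not. LINC02438 lost its call without any 1 library, with adjusted p between 0.063 and 0.16, and so did LINC02976, with adjusted p between 0.062 and 0.14. LINC02709 lost it without overexpressing library 1 or 3 or wild-type library 1 or 3 (adjusted p between 0.063 and 0.087).

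LINC02972, LINC02432 and LINC00839, which hold more reads, rose by less than these. LINC02972 had 85.9, 79.9 and 74.3 CPM in the overexpressing libraries, against 57.9, 63.1 and 63.2 CPM in the wild-type libraries. The groups did not overlap, and the rise was 1.30-fold (log2 fold change 0.38, SE 0.06, adjusted p = 0.0014). Corrected, it was 0.07 (adjusted p = 0.36), so the call ended. LINC02432 had 21.4 ± 1.3 CPM in overexpressing and 17.7 ± 1.6 CPM in wild-type cells, 1.21-fold (adjusted p = 0.041), and 0.47 on the log2 scale after correction (adjusted p = 0.0018). LINC00839 had 50.3 ± 0.67 CPM in overexpressing and 45.2 ± 1.7 CPM in wild-type cells, 1.11-fold (adjusted p = 0.034), and 0.27 on the log2 scale after correction (adjusted p = 0.0028). LINC02432 lost its call without any of overexpressing libraries 1 and 3 and wild-type libraries 2 and 3 (adjusted p between 0.10 and 0.11). LINC00839 lost it in every fit that left out a library other than wild-type library 1 (adjusted p between 0.055 and 0.09).

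The largest falls were in members below 4 CPM. LINC01776 at chr1:98210747-98272658 (plus strand) had 0.699, 0.479 and 0.445 CPM in the overexpressing libraries, against 1.31, 1.41 and 1.55 CPM in the wild-type libraries. It was 2.62-fold lower (log2 fold change -1.39, SE 0.25, adjusted p = 0.0023). LINC01203 on chromosome X had 0.616, 0.959 and 1.05 CPM in overexpressing and 2.70, 1.98 and 1.83 CPM in wild-type libraries, 2.48-fold lower (-1.31, SE 0.26, adjusted p = 0.0036). In both genes the groups stood well apart, and both falls kept a corrected log2 fold change of -1.16 or -1.17. LINC00342 at chr2:95807052-95835003 (minus strand) had 1.03, 1.27 and 1.66 CPM in overexpressing and 3.47, 3.56 and 2.00 CPM in wild-type libraries, 2.28-fold lower (-1.19, SE 0.27, adjusted p = 0.0068). Its wild-type library 3 lay close to the overexpressing libraries. Of its 31-base stretches 43.2% occur in ENSG00000277701 too, so its counts are uncertain.

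LINC00511, a growth-promoting RNA in reports on lung and breast cancer, fell. It lies at chr17:72290091-72640472 on the minus strand, and its level was 1.11, 1.68 and 1.33 CPM in the overexpressing libraries, against 2.19, 2.61 and 2.68 CPM in the wild-type libraries. No library of one group reached the other, and the RNA was 1.81-fold lower (log2 fold change -0.86, SE 0.20, adjusted p = 0.0084). Corrected for GC content and length, the fall was larger, at -1.01 (adjusted p = 0.006). LINC00641 on chromosome 14 had 4.04, 4.63 and 5.04 CPM in overexpressing and 9.08, 8.89 and 7.09 CPM in wild-type libraries, 1.83-fold lower (-0.87, SE 0.14, adjusted p = 0.0016; corrected -0.65). The remaining falls among the 12 largest were LINC01719, LINC02840, LINC02475, LINC01963 and LINC02035, with log2 fold changes between -0.73 and -0.62 and adjusted p between 0.003 and 0.021. After correction LINC01963 passed at -0.53 (adjusted p = 0.0093), while LINC01719, LINC02840, LINC02475 and LINC02035 lay between -0.55 and -0.26 and did not pass. LINC01719 lost its call without wild-type library 2 (-0.62, adjusted p = 0.053). LINC02035 lost it without wild-type library 2 or overexpressing library 1 or 3 (adjusted p between 0.052 and 0.078).

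LINC01106 and LINC01123 fell together, and they are near-identical copies on chromosome 2. LINC01106 lies at chr2:110375138-110384442 on the minus strand and LINC01123 at chr2:109987063-109996140 on the plus strand. LINC01123 has been described in non-small cell lung cancer as induced by MYC and as promoting aerobic glycolysis. LINC01106 had 4.62, 5.10 and 5.08 CPM in the overexpressing libraries, against 8.31, 10.1 and 11.2 CPM in the wild-type libraries, 2.00-fold lower (log2 fold change -1.001, SE 0.14, adjusted p = 0.00066). LINC01123 had 4.27, 4.23 and 3.70 CPM in overexpressing and 6.99, 6.49 and 6.69 CPM in wild-type libraries, 1.65-fold lower (-0.73, SE 0.12, adjusted p = 0.0017). Of the 31-base stretches of LINC01106 89.2% occur in LINC01123, and 77.3% of those of LINC01123 occur in LINC01106. How the counting split reads between them is not given, so the falls are not independent and either could carry reads of the other. Each also overlaps a ZBTB45 pseudogene on the other strand. Their promoter windows are shown because they are copies too: the windows align over 289 bases with 289 identical, and the capitals mark the 11 bases of each window that lie outside the alignment, the first bases of the LINC01106 window and the last of the LINC01123 window (chr2:110384487-110384786, minus strand; chr2:109986730-109987029, plus strand; RefSeq on GRCh38.p14, 5′ to 3′):
LINC01106: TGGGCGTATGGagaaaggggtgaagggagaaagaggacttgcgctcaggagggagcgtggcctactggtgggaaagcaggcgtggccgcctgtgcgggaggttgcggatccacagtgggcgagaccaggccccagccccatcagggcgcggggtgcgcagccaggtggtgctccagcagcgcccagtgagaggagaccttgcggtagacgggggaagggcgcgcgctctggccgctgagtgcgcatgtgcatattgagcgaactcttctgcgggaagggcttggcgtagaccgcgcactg
LINC01123: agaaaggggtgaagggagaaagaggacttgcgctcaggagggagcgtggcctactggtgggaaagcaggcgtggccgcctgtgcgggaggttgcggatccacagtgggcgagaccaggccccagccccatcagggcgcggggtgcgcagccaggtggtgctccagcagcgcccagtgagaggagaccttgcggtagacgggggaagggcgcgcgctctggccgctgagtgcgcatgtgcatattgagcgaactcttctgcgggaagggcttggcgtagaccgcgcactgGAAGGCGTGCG
The RefSeq starts used for these windows lie 94 bases (LINC01106) and 83 bases (LINC01123) from the GENCODE starts.

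**Figure D3:**
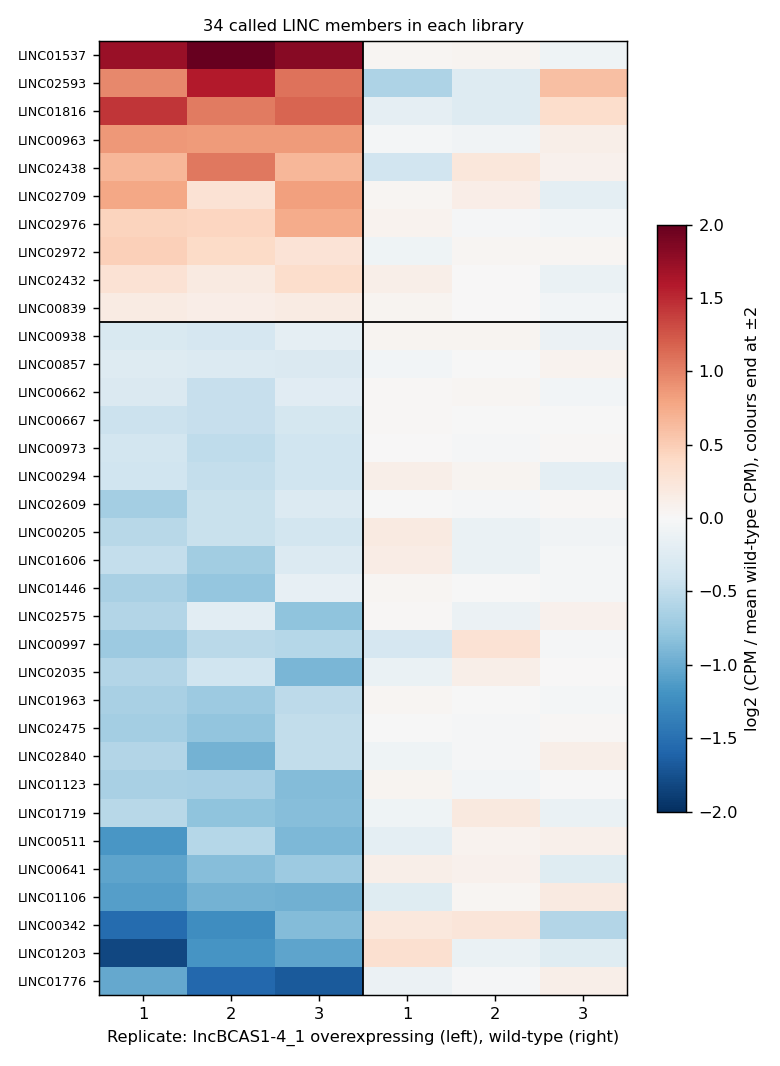
Level of each of the 34 called members (rows, from the largest rise at the top to the largest fall at the bottom) in each library, as log2 of its CPM over the mean wild-type CPM. Columns are overexpressing replicates 1 to 3 on the left and wild-type replicates 1 to 3 on the right, and the colours end at 2 and -2. The wild-type columns of LINC02593 and LINC00342 vary among themselves more than those of LINC00963 or LINC00667.

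Separation between the groups was also below the background, in a comparison not matched for level. The median of the mean counts was 166 over the members and 910.5 over all entries tested. In 66 members (30.8%) the 3 libraries of one group all lay beyond the 3 of the other, with the overexpressing libraries above in 21 and below in 45, whereas 50.7% of all entries had no overlap, 24.7% above and 26.0% below. All 34 called members were among the 66. Of the 34 calls, 19 (4 higher and 15 lower) held whichever library was left out, and 12 (2 higher and 10 lower) passed in every fit tried that tested them. The 2 higher ones were LINC01537 and LINC00963. LINC01537 met the limit of 30 counts only through the overexpressing group, so its passing is no support for a rise among the members. The 10 lower ones included LINC00511, LINC01106, LINC01123 and LINC00667, the last named after its values were seen. LINC00667 on chromosome 18 had 29.8, 28.9 and 31.4 CPM in the overexpressing libraries, against 40.4, 40.0 and 39.6 CPM in the wild-type libraries, 1.33-fold lower (log2 fold change -0.41, SE 0.06, adjusted p = 0.00068). Its exons overlap LINC00526 and ZBTB14 on the other strand, and 62.6% of its 31-base stretches occur in another gene.

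In some members the replicates of a group disagreed. LINC00707, studied in lung adenocarcinoma and named after its values were seen, had 3.91, 1.14 and 4.32 CPM in the overexpressing libraries and 2.71, 2.11 and 0.612 CPM in the wild-type libraries. The groups overlapped, and the log2 fold change of 0.78 had an SE of 0.56 (adjusted p = 0.32). It lay between 0.37 without wild-type library 3 and 1.19 without wild-type library 1. LINC02802, also named after its values were seen, had 7.18, 7.49 and 1.99 CPM in overexpressing and 4.87, 1.66 and 2.30 CPM in wild-type libraries (log2 fold change 0.92, adjusted p = 0.20). LINC02328, at the limit of 30 counts, had 32, 69 and 13 counts in overexpressing and 29, 23 and 15 counts in wild-type libraries. LINC01285, beside it, had 35, 19 and 27 counts in overexpressing and 36, 34 and 30 counts in wild-type libraries, and neither passed.

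A list of 26 LINC genes often studied in tumours was set from general knowledge, with earlier results of these data known. Of these, 16 were members and 2 more stood in the table below the limit. Among the 16, 2 were higher (LINC00963 and LINC00839) and 4 lower (LINC00511, LINC00973, LINC00662 and LINC00857), with a median log2 fold change of -0.05. The calls were 37.5% of the 16, beside 15.9% of all members and 38.0% of all entries, and level was not matched here. LINC00857, studied in lung adenocarcinoma, had 19.0, 18.9 and 18.6 CPM in the overexpressing libraries, against 21.9, 22.5 and 23.7 CPM in the wild-type libraries, 1.21-fold lower (-0.27, SE 0.07, adjusted p = 0.014; corrected -0.40). It lost its call without wild-type library 2 (-0.28, adjusted p = 0.051). LINC00662 had 30.1 ± 2.4 CPM in overexpressing and 37.5 ± 1.3 CPM in wild-type cells (-0.32, adjusted p = 0.0073; corrected -0.22, adjusted p = 0.021). LINC00973 had 9.61 ± 0.48 CPM in overexpressing and 12.9 ± 0.24 CPM in wild-type cells (-0.42, adjusted p = 0.0061), and its corrected value of -0.14 did not pass (adjusted p = 0.36).

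The most abundant others of the list did not pass. LINC00665, LINC00941, LINC01234, LINC01116 and LINC00339 had log2 fold changes of -0.02, -0.04, -0.18, -0.13 and 0.11, with adjusted p between 0.088 and 0.81. LINC01234 came nearest to the threshold and passed with libraries scaled by total count alone (-0.23, adjusted p = 0.042). Once corrected, 3 of the list were higher and 3 lower, because LINC00467, which is repressed by N-Myc in neuroblastoma, was then called at 0.41 (adjusted p = 0.022; as fitted 0.21, adjusted p = 0.18) and LINC00973 was not. The 1 member on chromosome 20, the chromosome of CYP24A1, was LINC01524 on its long arm. It had 0.958 ± 0.182 CPM in overexpressing and 1.04 ± 0.102 CPM in wild-type cells, or -0.12 on the log2 scale (adjusted p = 0.74).

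Fold changes of the members followed the GC content of the transcript, but with less slope than those of coding genes. The Spearman correlation of log2 fold change with GC content was 0.28 over 213 members and 0.61 over 16176 entries with a mean of 30 or more counts, all from the same 6 libraries. Log2 fold change rose by 0.16 per 10% of GC content over the members and by 0.28 over protein-coding entries, and the antisense and divergent entries had 0.13. The slope was lower for members in each of the 4 bins of counts, between 0.13 and 0.22 for members and between 0.26 and 0.28 for coding entries. In the 71 members of lowest GC content, 2 were higher and 13 lower with a median of -0.20. In the 71 of highest GC content, 4 were higher and 4 lower with a median of 0.06. For all entries in those ranges the medians were -0.30 and 0.23.

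A correction fitted over all entries turned the trend of the members round. After it, 8 members were higher and 19 lower, beside 22.3% of all entries (10.7% higher and 11.6% lower), with a median of -0.10 over members and -0.02 over all entries on the log2 scale. The correlation with GC content became -0.21, with medians of -0.01, -0.07 and -0.21 in the 71 members of lowest, middle and highest GC content. Of the 34 calls, 22 held their direction and side of the threshold (6 higher and 16 lower), 11 did not pass and 1 reversed. LINC00938, an RNA of 1 exon and 38.3% GC beside ARID2, a subunit of a chromatin-remodelling complex, had 40.0 ± 2.3 CPM in overexpressing and 48.1 ± 3.3 CPM in wild-type cells (SD, n = 3 each). It fell by 0.27 on the log2 scale as fitted (SE 0.07, adjusted p = 0.012) and was higher by 0.22 after correction (adjusted p = 0.0039), while ARID2 fell by 0.59 (adjusted p = 0.00028; corrected -0.17, adjusted p = 0.025). The call of LINC00938 as fitted was lost without wild-type library 1 or 2 (adjusted p = 0.052 for each). The 4 members called only after correction were LINC02870, LINC01521, LINC01096 and LINC00467.

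**Figure D4:**
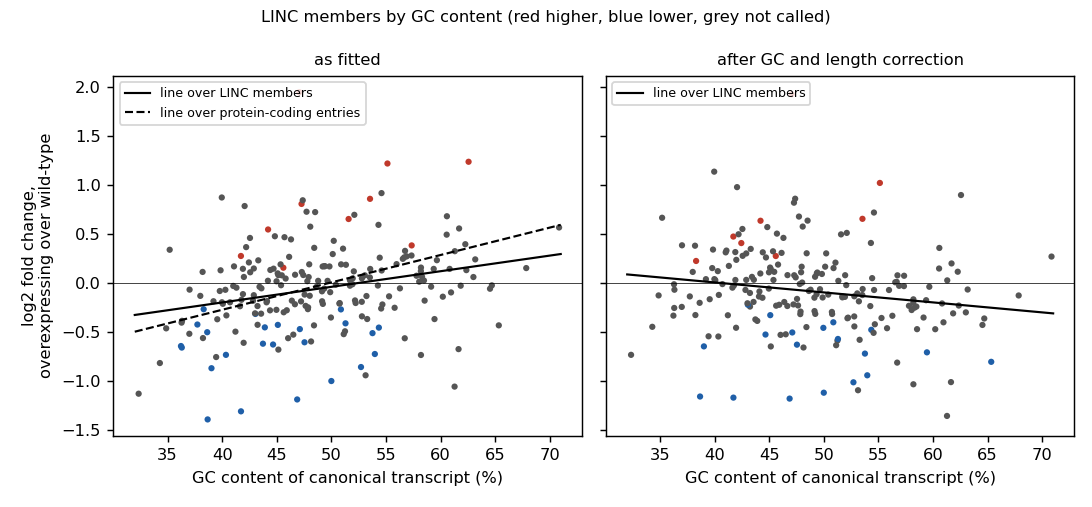
Log2 fold change (overexpressing over wild-type) of the 213 members with an annotated transcript against GC content of the canonical transcript (percent), as fitted (left) and after the GC and length correction (right). Red points are higher, blue points lower and dark points not called under each fit, and lines are least-squares fits over the members (solid) and over protein-coding entries (dashed, left). The solid line rises less steeply than the dashed one on the left, by 0.16 against 0.28 per 10% GC, and falls on the right.

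Neighbouring protein-coding genes were compared because some of these RNAs are known to act on nearby genes or to share a promoter with them. A tested nearest coding gene, by distance between starts, was found for 173 members. Across these pairs the Spearman correlation of the log2 fold changes was 0.23, and 0.14 after the GC and length correction. It was 0.16 over 17 pairs up to 1 kb apart, 0.19 over 97 pairs between 1 and 100 kb and 0.20 over 59 pairs farther apart. With the GC and length correction these values were -0.02, 0.22 and 0.06. Neighbours share GC content, and pairs can share a coding gene. Counted once per pair, so that a shared coding gene counts more than once, 34 of the 173 neighbours were higher and 51 lower. Of the 14018 protein-coding entries tested, 48.4% were called, 23.5% higher and 24.9% lower. The neighbours were thus called about as often as coding genes in general. A tested neighbour was found for 28 called members. Both genes were called in 16 of these pairs: both lower in 7, both higher in 4 and in opposite directions in 5.

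Of 18 members that start within 1 kb of a coding start, 14 are transcribed away from it. LINC00205 was the 1 member of the 18 that was called. This pair was named after its values were seen. LINC00205 at chr21:45288035-45297806 (plus strand) starts 137 bases from POFUT2, an enzyme that adds O-linked fucose to proteins. LINC00205 had 14.2, 15.3 and 16.3 CPM in the overexpressing libraries, against 23.8, 19.0 and 20.02 CPM in the wild-type libraries, 1.37-fold lower (log2 fold change -0.46, SE 0.10, adjusted p = 0.0076; corrected -0.48). POFUT2 had 45.7 ± 4.0 CPM in overexpressing and 32.7 ± 2.3 CPM in wild-type cells, a rise of 0.48 (SE 0.08, adjusted p = 0.0015; corrected 0.22, adjusted p = 0.027). The RNA and the coding gene thus differed in opposite directions on either side of one start region. The stretch between their RefSeq starts, which are 157 bases apart, is shown with the first 50 transcribed bases of LINC00205 in capitals (chr21:45287896-45288101, plus strand, RefSeq on GRCh38.p14, 5′ to 3′):
LINC00205: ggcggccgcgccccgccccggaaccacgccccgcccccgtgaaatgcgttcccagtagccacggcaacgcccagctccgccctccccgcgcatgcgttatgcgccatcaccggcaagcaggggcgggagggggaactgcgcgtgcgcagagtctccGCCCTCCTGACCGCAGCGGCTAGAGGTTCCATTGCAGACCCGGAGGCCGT
It holds none of the motifs searched.

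Other pairs moved alike or apart. LINC02593 starts 2907 bases from SAMD11 on the other strand, and SAMD11 had 21.6 ± 0.50 CPM in overexpressing and 5.65 ± 0.96 CPM in wild-type cells, a rise of 1.94 (SE 0.13, adjusted p = 3.6e-05). Both genes of that pair rose. LINC00857 starts 1800 bases from ANXA11, a calcium-dependent membrane-binding annexin, which had 325 ± 11.7 CPM in overexpressing and 265 ± 11.04 CPM in wild-type cells and rose by 0.29 (adjusted p = 0.0012) where LINC00857 fell. LINC01896 starts 744 bases from the zinc finger gene SALL3, which had 54.7 ± 1.2 CPM in overexpressing and 64.0 ± 1.4 CPM in wild-type cells and fell by 0.23 (adjusted p = 0.0032). LINC01896 itself was at 0.19 and not past the threshold (adjusted p = 0.098). After correction both were below 0, LINC01896 at -0.07 (adjusted p = 0.51) and SALL3 at -0.41 (adjusted p = 0.0006).

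Farther away, DCBLD2, a membrane receptor near LINC00973, fell by 0.74 (adjusted p = 2.6e-05; corrected -0.41). LINC00973 fell too as fitted, by 0.42, but did not pass after correction (-0.14, adjusted p = 0.36). CNPY3, PCBP1 and SLC49A4, nearest to LINC02976, LINC01816 and LINC02035, were higher by 0.33, 0.12 and 0.29 (adjusted p between 0.00096 and 0.049). After correction CNPY3 was at -0.0017 and PCBP1 at -0.13, while SLC49A4 was at 0.40. PCBP1 lost its call without overexpressing library 1 or 2 or wild-type library 1 or 2, and SLC49A4 without any library other than overexpressing library 3. ADGRE5, near LINC01842, was higher by 0.26 (adjusted p = 0.0034; corrected -0.0034), ZFP14, near LINC00665, was lower, at -0.51 (adjusted p = 0.026; corrected -0.05), and HNRNPF, a splicing factor near LINC02916, had -0.04 (adjusted p = 0.41). ZFP14 lost its call without wild-type library 1 or 2 or overexpressing library 1 (adjusted p between 0.057 and 0.10). LIMS4 and ENSG00000284337, nearest to the copies LINC01106 and LINC01123, were below 0.5 CPM in the mean of each group and did not pass (adjusted p = 0.30 and 0.32).

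**Figure D5:**
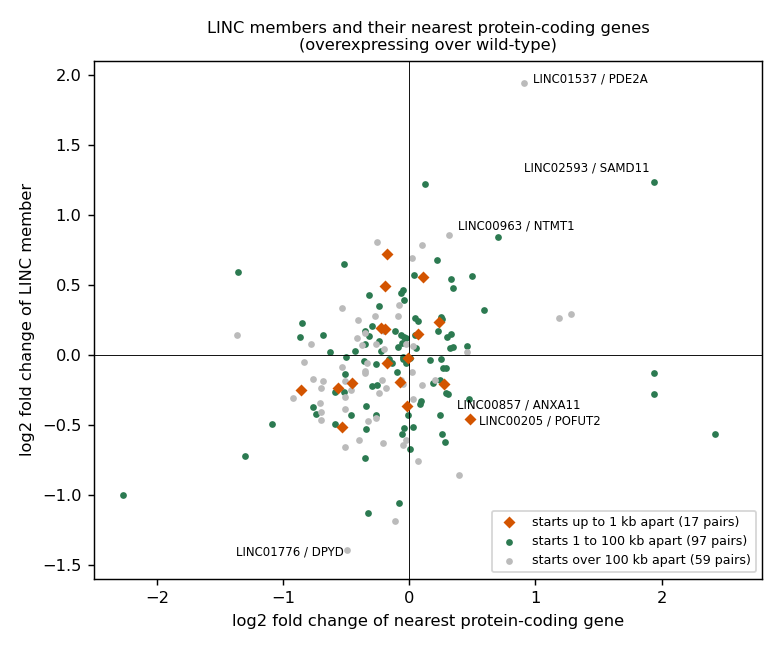
Log2 fold change (overexpressing over wild-type) of 173 members on the vertical axis against that of the nearest protein-coding gene on the horizontal axis. Diamonds are the 17 pairs with starts up to 1 kb apart, green points the 97 pairs between 1 and 100 kb and grey points the 59 pairs farther apart. LINC00205 and LINC00857 lie in the lower right part, with the RNA lower and the coding gene higher, and LINC02593 with SAMD11 lies at the upper right.

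Shared sequence limits which members can be read on their own. Exons of 92 members overlap an exon of another annotated gene, 30 of them on the same strand and 78 on the other strand, and 12 of these 92 were called. At least 50% of the 31-base stretches of 29 members occur in another gene, and 5 of these were called: LINC01106, LINC01123, LINC01719, LINC00667 and LINC00963. Without the 92 members with exon overlap, 9 of 122 were higher and 13 lower.

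The promoter windows of the members held 3 of the 5 motifs searched about as often as all windows. The shares with the AP-1 and cAMP response elements were larger, on few windows and with no test of these shares. The AP-1 element was in 17 of 164 member windows (10.4%), in 15 members, and in 7.71% of all windows. Some members have more than 1 window. The interferon-stimulated response element was in 3.66% of member windows and 3.57% of all windows, the TATA box TATAAA in 10.98% and 11.5%, and the E-box CACGTG in 6.71% and 7.26%. The cAMP response element TGACGTCA was in 4.27% of member windows and 1.85% of all windows, where 4.27% is 7 of 164 windows, in 5 members, none of them called. Motifs were sought on both strands, and none of their letters lies within another. Of the 6 higher members with a window, LINC00963 and LINC02709 held an AP-1 element, and of the 17 lower members with a window, LINC00973 did. LINC02475 was the 1 lower member with the interferon-stimulated element, and no higher member had it.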

How the data were processed

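Gene counts were analysed from 3 libraries of lncBCAS1-4_1-overexpressing H1299 cells and 3 of wild-type H1299 cells. Reads were trimmed with fastp and aligned to GRCh38 with HISAT2, and transcripts were assembled with StringTie, per the labels' protocols. Tool versions, library kit, strandedness and counting step were not given in the sources used here. Deposited values were raw counts per gene without normalization, and no count column was left without a sample.

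The quasi-likelihood F-test of edgeR 4.0.16 (R 4.3.3) was run on counts scaled by TMM, after filterByExpr with a min.count of 10 and a min.total.count of 15, with the group alone in the model and Benjamini-Hochberg adjustment over the 19101 entries left. All 214 members passed the filter. A member is called at an adjusted p under 0.05. The SE was taken as log2 fold change over the square root of F. CPM uses the TMM-scaled library size, and CPM per kb divides by the exonic bases of the gene. The low members rest on few counts, which limits their precision. The model was tested on simulated data, with changes of 1.5-fold and 2-fold set only in entries with a mean above 1 CPM. Members below 1 CPM and changes under 1.5-fold were not covered by that test.

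For the GC and length correction, each library's log2 CPM (prior count 2) was taken as a deviation from the entry's mean over all libraries. Natural splines with 5 degrees of freedom were fitted to these deviations over GC content and log2 length of the GENCODE 44 canonical transcript. The fitted values were entered as offsets. Shared sequence is the share of 31-base stretches found on either strand in transcripts of another gene. Promoter windows are from RefSeq (GRCh38.p14). Alternatives were DESeq2 1.42.0 and its size factors, library size alone, limma-voom (limma 3.58.1), other filters, a replicate block, leaving out each library and other limits for members. No pair of replicates was alike within sampling noise (chi-square divided by its degrees of freedom, 11.6 to 22.7).

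The members, lists and tests were chosen with earlier results of these data known. Genes named are the 10 members highest per kilobase, up to 12 of the largest rises and falls among the called, the 3 LINC entries on either side of the limit, the call that reversed after correction, tumour-list members that were called or among its 10 most abundant, the member on the long arm of chromosome 20, and up to 12 nearest coding genes. Other genes were named after their values were seen. The markers SFTPC, SFTPB, PTPRC, CD3E, CDH5, COL3A1 and PDGFRA were not analysed here, some other markers are not reported here, and COL1A1 was at 1.49 CPM in overexpressing and 1.60 CPM in wild-type cells.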

Additional observations from a re-analysis of the deposited data

How the results depend on the processing

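Under DESeq2 size factors or no filter, all 34 calls kept their direction and side of the threshold, and under DESeq2 and limma-voom 31 and 32 did. The count of higher members, 10, became 6 with library size alone, 5 with a replicate block, 5 with the GC and length correction and the block together, 3 over 2-fold, and between 5 and 7 without single libraries. The count of lower members, 24, became 4 over 2-fold, 13 without members with exon overlap, and between 18 and 24 without single libraries. Without the 29 members with much shared sequence, a setting chosen after seeing the data, 9 were higher and 20 lower. The members' median of -0.04 moved to -0.0901 with library size alone, -0.0755 with entries of a mean of 100 or more counts tested, -0.0844 over members of that mean, -0.0953 with the correction and -0.1076 with correction and block, and lay between -0.0235 without overexpressing library 1 and -0.0790 without wild-type library 3. The ratio of summed CPM was 0.9698 with library size alone and between 0.9976 and 1.0077 without single libraries. In the other noncoding classes, 36 higher became 11 with correction and block and between 23 (without wild-type library 2) and 36 without single libraries, and 59 lower became 39 with the block and between 33 (without wild-type library 1) and 54 without single libraries. Their median of -0.0220 became -0.0704 with library size alone, -0.0710 with the correction and -0.0709 with correction and block, and lay between -0.0373 and 0.0035 without single libraries.

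Signs reversed under the correction, and under correction with block, in LINC00938 (0.2234 both times), LINC01896 (-0.0728 and -0.0752), LINC02916 (-0.0726 and -0.0665), LINC01419 (0.1117 and 0.1172), LINC01116 (0.0306 and 0.0248), CNPY3 (-0.0017 both times), PCBP1 (-0.1319 both times) and ADGRE5 (-0.0034 and -0.0036). Signs also reversed in LINC00665 without overexpressing library 3 (0.0232, against -0.0429 without library 2), in LINC01524 without overexpressing library 1 (0.0225, against -0.2394 without library 2), and in LINC00339 without wild-type library 3 (-0.0774) or overexpressing library 3 (-0.0024), against 0.2447 without wild-type library 2. The cause was not tested. Replicates of the same number did not deviate together, with correlations over 10091 genes of -0.07, -0.26 and -0.44, so the numbers gave no sign of pairing. Libraries of unlike number had correlations between -0.15 and 0.36. The highest were 0.36 (overexpressing library 3 with wild-type library 2) and 0.32 (overexpressing library 2 with wild-type library 3). Some deviations were thus shared across the groups, and their source was not tested. The replicate block gave 5 higher and 22 lower members. At 30 to 100 counts, as in 80 members, the median SE was 0.38 on the log2 scale, and 4 of the 80 were called. Differences well above that SE could fail to pass there at this depth. LINC01385 at -1.06 (SE 0.44, adjusted p = 0.089) and LINC02986 at -1.13 (SE 0.52, adjusted p = 0.12) were not called.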
